A study of Mus musculus with 8 samples.

Results

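The genes described here encode 10 enzymes of glycolysis: Hk1, Hk2, Hk3, Pfkl, Aldoa, Gapdh, Pgk1, Pgam1, Pkm and Ldha. They were chosen by name, as every entry of the count table whose gene name is one of these symbols, and took up 11 of its 13786 entries, because a second identifier is also named Aldoa. RNA was sequenced from CD11c-positive splenocytes of 4 C57BL/6 and 4 B6.SLE123 mice, all female, untreated and 7 weeks old. C57BL/6 is the common inbred control strain, and B6.SLE123 is the same background with the lupus susceptibility intervals Sle1, Sle2 and Sle3 of another strain bred onto it, so each interval brings many linked variants and no single allele is tested. The strain was taken from the sample titles, because the number in the genotype labels rises by 1 from mouse to mouse within each strain. Nothing says that a mouse was pooled or shared between samples.

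Glycolysis splits glucose into pyruvate in the cytosol, with a yield of ATP and NADH, and lactate dehydrogenase turns pyruvate into lactate and gives back the NAD that the pathway consumes. Hexokinase and phosphofructokinase hold the first committed steps, and several steps are shared out among isoenzymes from different genes. Activated dendritic cells and macrophages and dividing lymphocytes are known for high glycolytic flux, which the transcription factors HIF-1 and MYC promote.

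Among the 10 genes, the 5 that act after the triose stage were higher in B6.SLE123 mice. Pgam1, phosphoglycerate mutase, rose most, by a log2 fold change of 0.73, and Gapdh, Pgk1, Pkm and Ldha rose by 0.33 to 0.36. At the entry of the pathway the hexokinases parted: Hk1 rose by 0.36 and Hk2 fell by 0.62 on the log2 scale. Aldoa fell slightly, and Hk3 and Pfkl did not pass the test. All fold changes are B6.SLE123 over C57BL/6, tested with edgeR's quasi-likelihood test on raw counts and adjusted over all 13786 entries.

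Of the 11 entries, 9 passed the threshold of 0.05 for edgeR's adjusted p, against 53.4% of all genes. Of these, 7 were higher in B6.SLE123 mice, a direction taken by 26.7% of all genes, and 2 were lower, against 26.6% of all genes. The median log2 fold change of the 11 entries was 0.33, beside -0.002 over all genes. Only 1 entry was called and more than 2-fold changed, the second Aldoa identifier with at most 23 counts in a mouse, against 11.1% of all genes. The 4 values of one strain did not overlap the 4 of the other for 9 entries, 8 of them higher and 1 lower in B6.SLE123 mice, against 48.9% of all genes. Between them the 11 entries took 0.179% ± 0.0036 of a mouse's counts in C57BL/6 mice and 0.205% ± 0.010 in B6.SLE123 mice (SD, n = 4), out of totals of 25761789 to 37367094 counts. All entries but the second Aldoa had far more than 10 counts in every mouse.

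The cells carried dendritic cell genes, but the strains differed in the markers of other cells, and the part of this in the results below was not tested. All 7 general dendritic cell markers were higher in B6.SLE123 mice, with Cd74 at 0.25 and H2-Ab1 at 0.28 on the log2 scale. All 14 red pulp macrophage markers and all 4 marginal zone macrophage markers were lower, and the summed level of the former was 14301 to 18397 CPM (counts scaled to library size with TMM factors) in C57BL/6 mice and 2041 to 4066 CPM in B6.SLE123 mice. Vcam1 and Csf1r, the most abundant of them, fell by 2.45 and 2.18. In the study Csf1r also marked a cluster of monocyte-related dendritic cells, so the genes of this list are not all confined to macrophages. All 10 proliferation genes rose, from a summed 630 to 698 CPM to 1147 to 1503 CPM, and Mki67 rose by 1.28. Erythroid markers summed to 86.4 to 289 CPM and to 8.97 to 39.6 CPM, and 9 of 10 fell. These counts stand beside 26.7% of all genes called higher and 26.6% called lower. Every gene of the table had a larger strain median of at least 5 counts, so no marker in it could be at 0 throughout. Markers absent from the table were not counted. In a bulk sample, fewer cells of a type and less RNA per cell cannot be told apart.

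The promoter windows of 4 genes are shown first, as examples of genes that fell (Hk2) and rose (Pgk1, Pgam1 and Ldha), with a motif of the hypoxia response marked. They were picked with the values and matches in view, and Hk1, not shown, also has a window with 3 matches. The windows are the 250 bases before a RefSeq transcript start in GRCm38.p6, read on the gene's strand. Capitals mark ACGTG or GCGTG, or their reverse complements CACGT and CACGC, the core that HIF-1 is known to read.

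Hk2 (chr6:82774455-82774704, minus strand): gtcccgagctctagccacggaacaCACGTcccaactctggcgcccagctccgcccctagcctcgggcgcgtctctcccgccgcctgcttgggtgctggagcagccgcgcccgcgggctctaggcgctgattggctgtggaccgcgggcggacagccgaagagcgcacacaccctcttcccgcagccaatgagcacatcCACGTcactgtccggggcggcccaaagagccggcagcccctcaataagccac

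Pgk1 (chrX:106186850-106187099, plus strand): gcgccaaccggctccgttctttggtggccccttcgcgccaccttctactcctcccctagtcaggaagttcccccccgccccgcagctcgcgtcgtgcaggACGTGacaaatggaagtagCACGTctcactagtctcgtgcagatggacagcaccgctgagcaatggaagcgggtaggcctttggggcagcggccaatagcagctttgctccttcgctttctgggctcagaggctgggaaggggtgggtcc

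Pgam1 (chr19:41911621-41911870, plus strand): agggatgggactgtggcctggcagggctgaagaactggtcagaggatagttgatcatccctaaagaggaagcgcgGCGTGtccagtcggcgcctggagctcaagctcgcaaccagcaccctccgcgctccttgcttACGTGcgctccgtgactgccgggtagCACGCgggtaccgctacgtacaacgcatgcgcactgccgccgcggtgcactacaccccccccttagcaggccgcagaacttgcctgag

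Ldha (chr7:46845554-46845803, plus strand): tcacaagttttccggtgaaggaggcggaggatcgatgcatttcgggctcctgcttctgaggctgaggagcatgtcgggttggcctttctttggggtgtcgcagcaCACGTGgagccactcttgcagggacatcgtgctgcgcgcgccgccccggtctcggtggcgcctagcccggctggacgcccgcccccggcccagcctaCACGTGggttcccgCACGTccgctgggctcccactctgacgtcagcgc

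The Hk2 and Pgk1 windows hold 2 matches each, and the Pgam1 window holds 3. The Ldha window, which lies in an intron of a longer annotated Ldha transcript, holds 5, where each copy of the palindrome CACGTG counts as 2 overlapping matches. Of all 32851 windows in the table, 38.6% hold at least 1 match and 6.58% hold at least 3. Among the 15 windows of the 10 genes, 12 hold a match, and each gene has a window with one. CACGTG itself is in 1 of the 15, the Ldha window shown, and in 6.02% of all windows. Of the windows shown, that of Hk2 belongs to a gene that fell and the others to genes that rose. All of those shown hold matches, which differ in form and number. A match is a string of letters and not evidence of binding, and the matched genes moved in both directions. Whether HIF-1 acts on these genes was not tested.

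Hexokinase traps glucose in the cell as glucose-6-phosphate. Hk1 (chr10:62268855-62379908, minus strand, GRCm38/mm10) encodes the widely expressed isoenzyme, which binds mitochondria. Its level was 55.2, 56.0, 54.7 and 57.9 CPM in the C57BL/6 mice and 70.0, 74.3, 72.1 and 71.2 CPM in the B6.SLE123 mice. Every B6.SLE123 mouse was above every C57BL/6 mouse, and the log2 fold change was 0.36 ± 0.040 (SE, edgeR adjusted p = 2.31e-05), or 1.29-fold. Hk2 (chr6:82725025-82774454, minus strand) encodes the inducible isoenzyme of muscle, tumours and activated leukocytes. It stood at 106, 105, 94.0 and 92.8 CPM in C57BL/6 mice and at 67.9, 62.8, 62.9 and 64.9 CPM in B6.SLE123 mice. The strains were again apart, in the opposite direction, with a log2 fold change of -0.62 ± 0.055 (SE, edgeR adjusted p = 4.81e-06), or 1.54-fold lower.

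Hk3 (chr13:55005985-55021385, minus strand) encodes a hexokinase typical of myeloid cells. Its level was 142, 114, 138 and 135 CPM in C57BL/6 mice and 99.6, 143, 112 and 84.5 CPM in B6.SLE123 mice. The highest value of all belonged to B6.SLE123 replicate 2 and the strains overlapped, with a log2 fold change of -0.26 ± 0.135 (SE, edgeR adjusted p = 0.123). Without that mouse it was -0.43 (edgeR adjusted p = 0.00485), so the call rests on 1 mouse. Exons of Hk3 overlap those of Unc5a on the other strand, and exons of Hk1 overlap the antisense gene Hk1os. Whether reads were counted by strand is not given in the sources used here, so reads of such pairs may be shared.

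**Figure D1:**
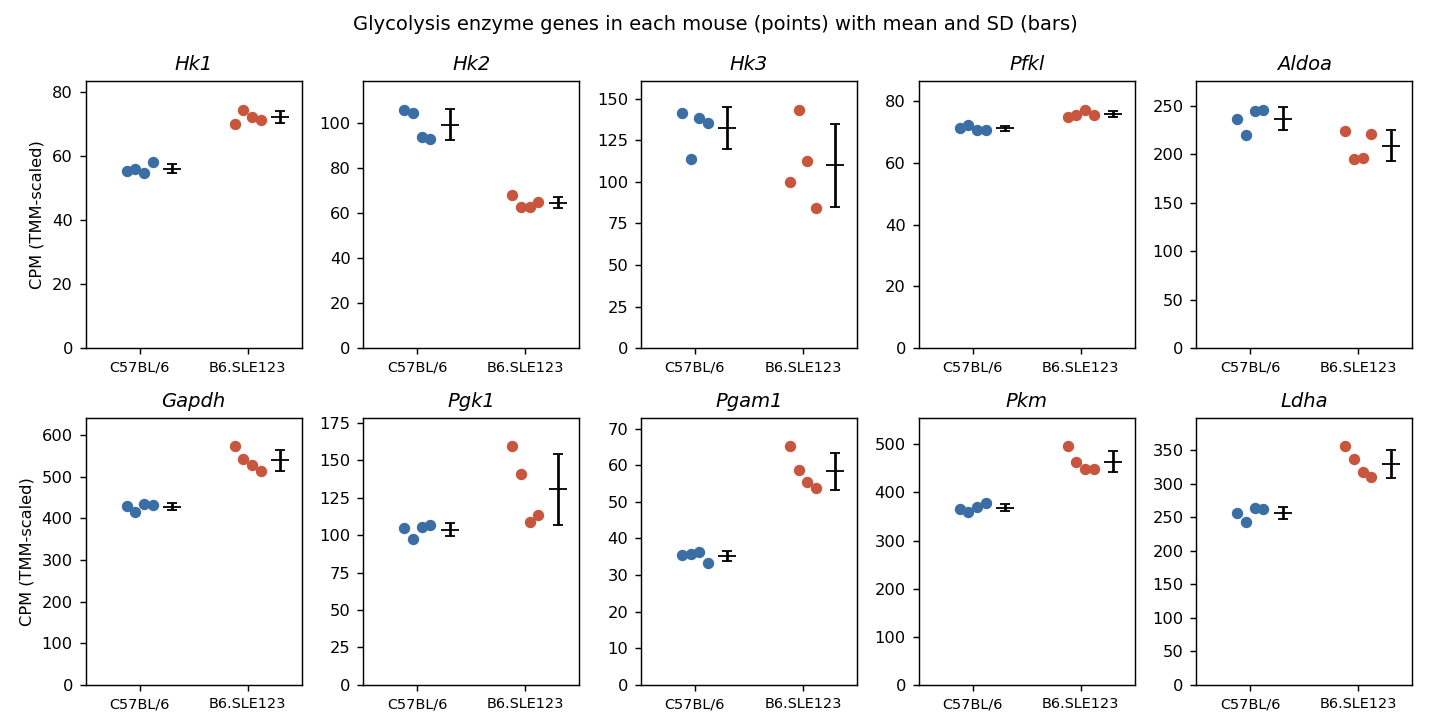
Level of each of the 10 genes in each mouse, in CPM scaled by TMM (vertical axes, each from 0), for C57BL/6 (blue, n = 4) and B6.SLE123 (red, n = 4), with the mean and SD beside the points. Pgam1 and Hk1 separate upwards and Hk2 downwards in B6.SLE123 mice, while the values of Hk3 and Aldoa overlap between the strains.

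Ratios of counts within a mouse do not depend on how libraries were scaled. There were 1.60 to 1.92 Hk2 counts for each Hk1 count in C57BL/6 mice and 0.845 to 0.971 in B6.SLE123 mice. Hk2 thus gave more counts than Hk1 in every C57BL/6 mouse and fewer in every B6.SLE123 mouse, and the mean log2 ratio went from 0.83 ± 0.12 to -0.15 ± 0.09 (SD, n = 4; difference -0.98, exact two-sided permutation p = 0.0286, adjusted p = 0.0572 over 8 isoenzyme ratios). An exact p of 0.0286 is the smallest that 4 mice against 4 allow, and no ratio could pass 0.05 after adjustment unless more of the 8 had reached it. The log2 ratio of Hk3 to Hk1 was lower in B6.SLE123 mice by 0.65, also without overlap (exact permutation p = 0.0286, adjusted 0.0572). Hk3 to Hk2 differed by 0.33 with overlap (exact permutation p = 0.229). Per kilobase of exon, Hk1 made up 11.1% ± 0.72 of the summed hexokinase level in C57BL/6 mice and 17.4% ± 2.0 in B6.SLE123 mice (SD, n = 4). The share of Hk2 went from 28.2% ± 2.6 to 22.4% ± 3.4, and Hk3 held 60.6% ± 3.0 and 60.2% ± 5.3. The summed hexokinase level on this scale was 59.1 ± 3.2 CPM per kilobase in C57BL/6 mice and 49.1 ± 6.7 in B6.SLE123 mice. The scale divides by the union of exons over transcripts, 8.53 kilobases for Hk1, 5.97 for Hk2 and 3.68 for Hk3.

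Other enzymes act on glucose or its first product. Adpgk, which uses ADP in place of ATP to phosphorylate glucose, fell from 95.1 to 104 CPM in C57BL/6 mice to 76.1 to 88.1 CPM in B6.SLE123 mice (log2 fold change -0.28 ± 0.054, SE, edgeR adjusted p = 0.00125). Gpi1, glucose-6-phosphate isomerase, had means of 392 CPM in both strains and a log2 fold change of 0.000 ± 0.038 (SE, edgeR adjusted p = 0.995).

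Phosphofructokinase commits fructose-6-phosphate to glycolysis, as a tetramer of liver, muscle and platelet type subunits. Pfkl (chr10:77986947-78010083, minus strand), the liver type, was at 71.2, 72.3, 70.7 and 70.8 CPM in C57BL/6 mice and at 74.8, 75.6, 77.2 and 75.4 CPM in B6.SLE123 mice. These values did not overlap, but the log2 fold change was only 0.09 ± 0.035 (SE, edgeR adjusted p = 0.0542) and did not pass the threshold. Pfkp, the platelet type, which is not among the 10 genes, rose from 80.0, 76.3, 74.5 and 73.9 CPM to 135, 168, 129 and 118 CPM. That is a log2 fold change of 0.85 ± 0.093 (SE, edgeR adjusted p = 2.3e-05), or 1.80-fold. Pfkm, the muscle type, was at 6.39 ± 0.83 and 6.01 ± 0.98 CPM (SD, n = 4) and its log2 fold change was -0.08 ± 0.139 (SE, edgeR adjusted p = 0.658).

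The subunits therefore stood in a different proportion. There were 0.890 to 0.957 Pfkl counts per Pfkp count in C57BL/6 mice and 0.449 to 0.641 in B6.SLE123 mice, a log2 difference of -0.75 (exact permutation p = 0.0286, adjusted 0.0572). Pfkm to Pfkp differed by -0.93 with the same p and without overlap, while Pfkl to Pfkm differed by 0.18 with overlap (exact permutation p = 0.314). Per kilobase of exon, Pfkp made up 31.1% ± 0.56 of the summed phosphofructokinase level in C57BL/6 mice and 43.6% ± 3.6 in B6.SLE123 mice (SD, n = 4). The share of Pfkl was 58.4% ± 1.2 and 48.7% ± 3.6, so on this scale the liver type remained the largest by mean in both strains. That order rests on the exon lengths used, 13.4 kilobases for Pfkp and 6.675 for Pfkl. By counts alone Pfkp was above Pfkl in every mouse. The summed level was 18.3 ± 0.50 CPM per kilobase in C57BL/6 mice and 23.4 ± 1.8 in B6.SLE123 mice.

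**Figure D2:**
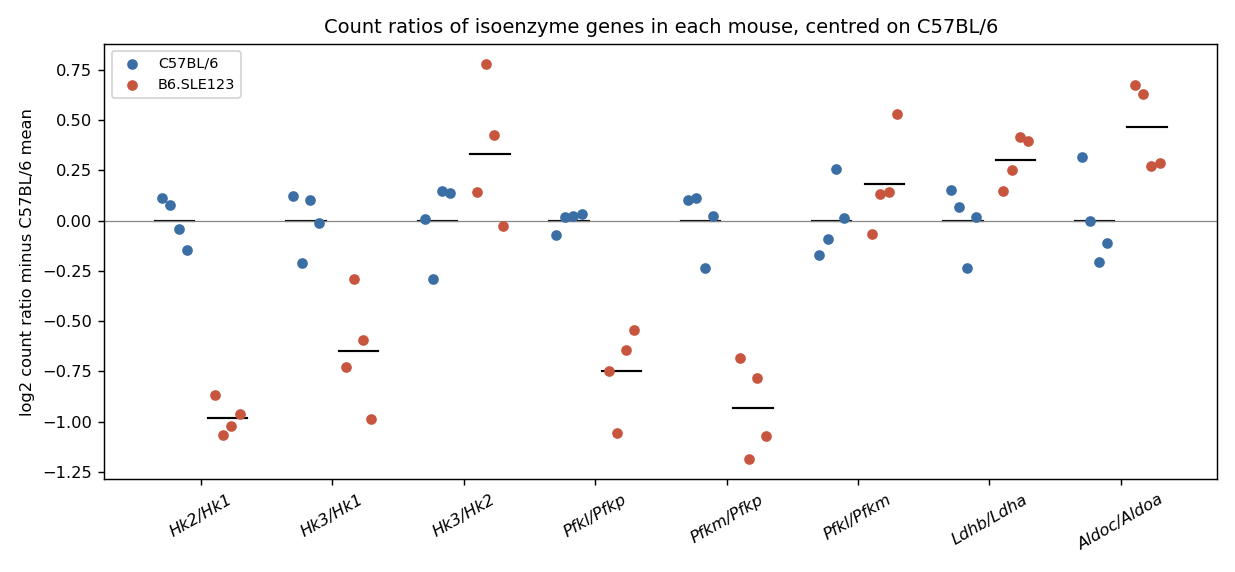
Log2 ratio of the counts of 2 isoenzyme genes in each mouse, less the C57BL/6 mean of that ratio (vertical axis), for 8 ratios (horizontal axis), with C57BL/6 in blue, B6.SLE123 in red and black bars at the means of 4 mice. The Hk2/Hk1, Hk3/Hk1, Pfkl/Pfkp and Pfkm/Pfkp ratios are lower in every B6.SLE123 mouse, and the other 4 ratios overlap between the strains.

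Aldolase splits fructose-1,6-bisphosphate into a pair of trioses. Aldoa (chr7:126795234-126800751, minus strand), the muscle and general isoenzyme, was at 237, 220, 245 and 246 CPM in C57BL/6 mice and at 224, 195, 196 and 220 CPM in B6.SLE123 mice. It fell by 0.18 ± 0.059 on the log2 scale (SE, edgeR adjusted p = 0.0232), with overlap between the strains. Leaving out any of 4 mice, C57BL/6 replicate 3 or 4 or B6.SLE123 replicate 2 or 3, moved its edgeR adjusted p to between 0.0543 and 0.0634. The second identifier named Aldoa (chr7:126800790-126809108, minus strand, just upstream) had 7, 2, 6 and 9 counts in C57BL/6 mice and 17, 23, 15 and 9 counts in B6.SLE123 mice. Its log2 fold change of 1.24 ± 0.373 (SE, edgeR adjusted p = 0.0161) thus rests on few reads, and both identifiers share a name and nearly adjoin. Aldoc, the brain isoenzyme, had 5.79 ± 0.92 and 7.08 ± 1.3 CPM (SD, n = 4), and its ratio to Aldoa differed by 0.47 on the log2 scale with overlap (exact permutation p = 0.0857, adjusted 0.114). Tpi1, triosephosphate isomerase, had a log2 fold change of 0.10 ± 0.053 (SE, edgeR adjusted p = 0.136).

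Gapdh (chr6:125161715-125166467, minus strand) encodes the dehydrogenase that forms NADH, and it is widely used as a reference gene. Its level was 429, 415, 434 and 433 CPM in C57BL/6 mice and 573, 543, 527 and 514 CPM in B6.SLE123 mice. All B6.SLE123 mice were above all C57BL/6 mice, with a log2 fold change of 0.33 ± 0.044 (SE, edgeR adjusted p = 8.61e-05), or 1.26-fold. Gapdhs, the sperm isoenzyme, was at 3.45 ± 0.24 and 3.79 ± 0.63 CPM (SD, n = 4; edgeR adjusted p = 0.456).

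Phosphoglycerate kinase makes the first ATP of the pathway. Pgk1 (chrX:106187100-106203699, plus strand) was at 105, 97.1, 105 and 107 CPM in C57BL/6 mice and at 159, 141, 109 and 114 CPM in B6.SLE123 mice. The strains did not overlap, but B6.SLE123 replicates 1 and 2 were well above replicates 3 and 4, and the log2 fold change was 0.34 ± 0.106 (SE, edgeR adjusted p = 0.0205). Without C57BL/6 replicate 2 the edgeR adjusted p was 0.0558 and without B6.SLE123 replicate 2 it was 0.0582.

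Phosphoglycerate mutase moves the phosphate of 3-phosphoglycerate. Pgam1 (chr19:41911923-41918660, plus strand), the brain and general isoenzyme, was at 35.6, 35.7, 36.2 and 33.4 CPM in C57BL/6 mice and at 65.2, 58.8, 55.3 and 53.9 CPM in B6.SLE123 mice. The lowest B6.SLE123 mouse was thus far above the highest C57BL/6 mouse, and the log2 fold change was 0.73 ± 0.062 (SE, edgeR adjusted p = 3.96e-06), or 1.66-fold. Pgam2, the muscle isoenzyme, rose alongside at a lower level, from 4.76 ± 0.53 to 8.37 ± 0.26 CPM (SD, n = 4), a log2 fold change of 0.81 ± 0.098 (SE, edgeR adjusted p = 4.66e-05). Bpgm, the mutase that makes 2,3-bisphosphoglycerate in red cells, had a log2 fold change of -0.19 ± 0.082 (SE, edgeR adjusted p = 0.0751).

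Enolase, the step between Pgam1 and Pkm, is not among the 10 genes, and its main gene moved against its neighbours. Eno1, the general isoenzyme, fell from 276, 284, 316 and 311 CPM in C57BL/6 mice to 256, 230, 252 and 263 CPM in B6.SLE123 mice. All B6.SLE123 mice were below all C57BL/6 mice, with a log2 fold change of -0.25 ± 0.058 (SE, edgeR adjusted p = 0.00437). Eno2, the neuronal isoenzyme, rose by 0.39 ± 0.127 (SE, edgeR adjusted p = 0.0242) with overlap, and this call was lost without any of C57BL/6 replicate 3, C57BL/6 replicate 4 or B6.SLE123 replicate 4. Eno3, the muscle isoenzyme, had a log2 fold change of 0.16 ± 0.108 (SE, edgeR adjusted p = 0.246), and Eno1b had at most 13 counts in a mouse.

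Pyruvate kinase makes the last ATP of the pathway. Pkm (chr9:59656368-59679375, plus strand), whose M1 and M2 splice forms the gene counts do not tell apart, was at 366, 360, 370 and 378 CPM in C57BL/6 mice and at 496, 463, 450 and 449 CPM in B6.SLE123 mice. The strains were apart, with a log2 fold change of 0.33 ± 0.044 (SE, edgeR adjusted p = 8.49e-05). Ldha (chr7:46841475-46855627, plus strand), the subunit of lactate dehydrogenase that prevails in glycolytic tissue, was at 256, 243, 264 and 263 CPM and at 356, 336, 317 and 310 CPM. It also rose without overlap, by 0.36 ± 0.051 (SE, edgeR adjusted p = 0.000144), or 1.29-fold. Ldhb, the heart subunit, rose from 2.94 ± 0.29 to 4.66 ± 0.14 CPM (SD, n = 4), a log2 fold change of 0.67 ± 0.113 (SE, edgeR adjusted p = 0.000523). The log2 ratio of Ldhb to Ldha differed by 0.30 between the strains (exact permutation p = 0.0571, adjusted 0.0914), and Ldha gave far more counts than Ldhb in every mouse.

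Ldha lies on chromosome 7 between 40 and 50 Mb, where 129 genes were tested, 36 of them were higher and 54 lower in B6.SLE123 mice, and the median log2 fold change was -0.15. Over all genes 26.7% were higher and 26.6% lower. Several of these genes, among them Gapdh, Pgk1, Pgam1, Aldoa and Ldha, are known to have near-identical processed pseudogenes, and how reads that fit more than one place were treated is not given in the sources used here. Exons of Gapdh overlap Iffo1, those of Aldoa overlap Fam57b, and those of Pkm overlap Gm49759.

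**Figure D3:**
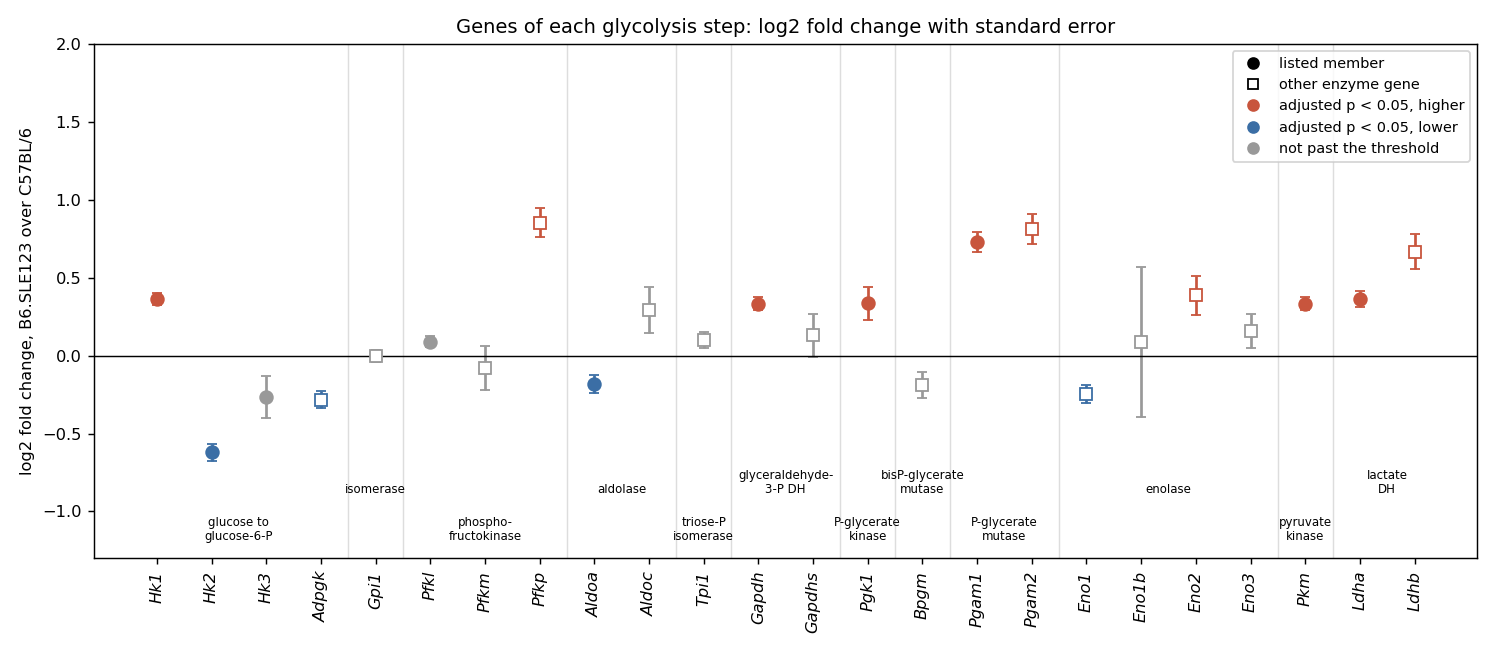
Log2 fold change of B6.SLE123 over C57BL/6 with its standard error (vertical axis) for enzyme genes ordered by step of the pathway (horizontal axis), 10 of them members (filled circles) and the rest other enzyme genes (open squares), coloured by the edgeR adjusted p at 0.05. The filled points from Gapdh to Ldha lie at 0.33 to 0.73, Eno1 between them lies at -0.25, and Hk2 is the lowest point, at -0.62.

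Compared with each other per kilobase of exon, the genes kept a broadly similar order in both strains. In C57BL/6 mice Gapdh was highest at 104 CPM per kilobase, followed by Aldoa at 81.4, Ldha at 77.4 and Pkm at 73.7. Pgk1 at 46.1 and Hk3 at 35.9 came next, then Pgam1 at 17.8, Hk2 at 16.6, Pfkl at 10.7 and Hk1 at 6.56. The ranges over the C57BL/6 mice overlapped between Aldoa and Ldha, between Ldha and Pkm and between Pgam1 and Hk2. Within each of these mice the first gene of each pair was nonetheless the higher, by small margins that rest on the exon lengths used. In B6.SLE123 mice Gapdh was again highest, at 130 CPM per kilobase, and Aldoa at 71.7 stood below Ldha at 99.6 and Pkm at 92.9. Pgam1 rose to 29.4 and lay within the values of Hk3 at 29.9, and the values of Hk2 at 10.8 overlapped those of Pfkl at 11.4 in single mice. The exon length used is the union over transcripts, which for Gapdh is longer than its usual mRNA, so its level per kilobase is understated.

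The ratio of each gene to Gapdh in the same mouse set the members that moved together apart from those that did not. Pkm stayed at 0.852 to 0.874 counts per Gapdh count in C57BL/6 mice and at 0.852 to 0.874 in B6.SLE123 mice, with a difference of 0.0003 between the mean log2 ratios (SD 0.018 and 0.017, n = 4; exact permutation p = 0.914). Ldha stood at 0.585 to 0.608 and 0.601 to 0.621 counts per Gapdh count, a log2 difference of 0.03 (exact permutation p = 0.171). Hk1 differed by 0.03 (exact permutation p = 0.629) and Pgk1 by -0.01 (exact permutation p = 0.943), with a wider spread of Pgk1 in B6.SLE123 mice (SD 0.20) than in C57BL/6 mice (SD 0.034). For these 4 genes the strains thus overlapped once Gapdh was taken as the base. The other 5 ratios did not overlap between the strains: relative to Gapdh, Pgam1 was higher in B6.SLE123 mice by 0.39, and Pfkl, Aldoa, Hk3 and Hk2 were lower by differences of -0.24, -0.52, -0.62 and -0.95 on the log2 scale. Each had an exact permutation p of 0.0286, the smallest possible, and an adjusted p of 0.0515 over the 9 ratios, so none passed 0.05 after adjustment. Since Gapdh itself rose by 0.33 against the library as a whole, values taken relative to it sit lower by that amount.

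**Figure D4:**
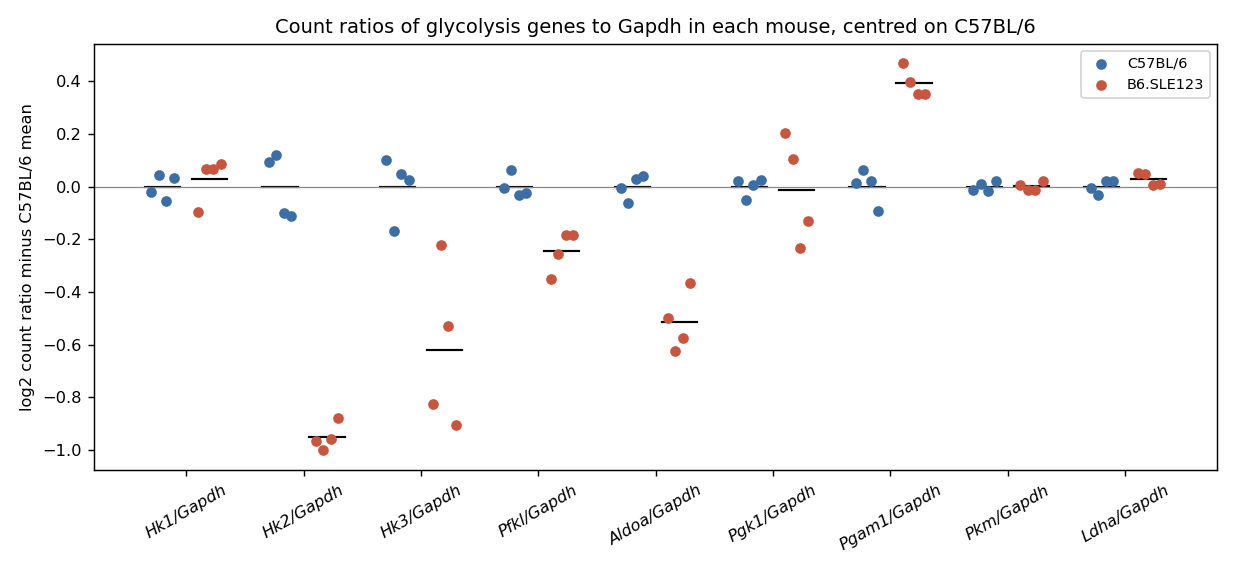
Log2 ratio of each gene's counts to Gapdh counts in each mouse, less the C57BL/6 mean of that ratio (vertical axis), for 9 genes (horizontal axis), with C57BL/6 in blue, B6.SLE123 in red and black bars at the means of 4 mice. Pkm, Ldha, Hk1 and Pgk1 overlap between the strains, Pgam1 is higher and Hk2, Hk3, Aldoa and Pfkl are lower in every B6.SLE123 mouse.

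Beyond the 10 genes, the table held 15 further glycolysis enzymes from a list of 20. Of these, 5 were higher and 2 lower, against 26.7% and 26.6% of all genes, and 8 were not called. Their median log2 fold change was 0.13. Among the higher ones were Pfkp, Pgam2, Ldhb and Eno2, and the lower ones were Adpgk and Eno1. Hkdc1, Ldhc, Pgk2 and Pklr were not analysed here.

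Glucose enters and lactate leaves the cell through membrane transporters. Of 11 genes for such transporters and their partner Bsg, 1 was higher and 6 were lower, against 26.7% and 26.6% of all genes, with a median log2 fold change of -0.23. Slc16a7, which encodes the monocarboxylate transporter MCT2, fell by 1.31 ± 0.116 on the log2 scale (SE, edgeR adjusted p = 4.96e-06), from 31.6 ± 2.0 to 12.8 ± 2.5 CPM (SD, n = 4). Slc2a8, which encodes the glucose transporter GLUT8, fell by 0.63 ± 0.097 (SE, edgeR adjusted p = 0.000279). The higher gene was Slc2a5, the fructose transporter, with 2, 3, 0 and 2 counts in C57BL/6 mice and 4, 13, 7 and 7 counts in B6.SLE123 mice. The 4 genes not called were Slc2a1, Slc2a3, Slc16a3 and Slc2a13, named after their values were seen. Their log2 fold changes were 0.21, -0.07, 0.08 and 0.77 (edgeR adjusted p = 0.0674, 0.531, 0.576 and 0.172). Slc2a3 was the most abundant of these, with means of 110 CPM in C57BL/6 mice and 105 CPM in B6.SLE123 mice.

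Of 21 genes that control glycolysis, 3 were higher and 9 lower, against 26.7% and 26.6% of all genes, with a median of -0.15. Pdk1 encodes a kinase that shuts pyruvate dehydrogenase and so keeps pyruvate out of mitochondria, and it is a known HIF-1 target. It fell from 46.8, 48.6, 49.4 and 48.0 CPM in C57BL/6 mice to 21.5, 18.4, 19.8 and 20.4 CPM in B6.SLE123 mice. This was the largest separation among the control genes, at -1.27 ± 0.055 on the log2 scale (SE, edgeR adjusted p = 9.5e-08), or 2.41-fold lower. Pdk2, of the same kinase family, fell by 0.53 ± 0.094 (SE, edgeR adjusted p = 0.000677). Pfkfb4, a bifunctional enzyme that sets fructose-2,6-bisphosphate, the activator of phosphofructokinase, fell by 0.50 ± 0.081 (SE, edgeR adjusted p = 0.000409). The 3 genes that rose were Pfkfb3, at 0.46, Vhl, which marks HIF-1 for degradation, at 0.39, and Pdk3, at 0.20. The genes of the factors themselves were among the 9 that fell: Hif1a and its partner Arnt by 0.15 each (edgeR adjusted p = 0.0226 and 0.0121) and Myc by 0.38 (edgeR adjusted p = 0.00226). The rest of the 9 were Egln2, Pfkfb2 and Txnip, lower by 0.26, 0.40 and 0.39 (edgeR adjusted p = 0.00219, 0.00937 and 0.00251). The genes of this paragraph given without a standard error, and those given so by symbol below, were picked with their values in view.

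Of 16 HIF-1 target genes outside glycolysis, 4 were higher and 4 lower, with a median of -0.02, shares close to the 26.7% and 26.6% of all genes. P4ha1, a subunit of collagen prolyl hydroxylase, fell by 0.80 ± 0.099 (SE, edgeR adjusted p = 5.78e-05), and its paralogue P4ha2 fell from 9, 29, 10 and 14 counts to 4, 2, 7 and 2 counts. Ndrg1, a hypoxia and stress response gene, rose by 0.63 ± 0.103 (SE, edgeR adjusted p = 0.00043). The others called were Ero1l, Gys1 and Higd1a, which were higher, and Vegfa and Bnip3l, which were lower.

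The pentose phosphate pathway leaves glycolysis at glucose-6-phosphate and returns to it below phosphofructokinase. Of its 8 genes 3 were lower and 3 higher, with a median of 0.000, against 26.6% and 26.7% of all genes. The lower ones encode the cytosolic enzymes of its oxidative arm, which makes NADPH. G6pdx, the entry enzyme, fell from 90.6, 80.3, 90.8 and 93.9 CPM to 59.7, 49.6, 56.0 and 58.1 CPM, or by 0.67 ± 0.067 on the log2 scale (SE, edgeR adjusted p = 1.16e-05). Pgls fell by 0.45 ± 0.037 (SE, edgeR adjusted p = 3.05e-06) and Pgd by 0.31 ± 0.057 (SE, edgeR adjusted p = 0.000889). The higher ones were Rpe, Rpia and Taldo1, enzymes of the arm that interconverts sugars, and H6pd and Tkt were not called. The division between the arms was seen in the values and was not tested as such.

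**Figure D5:**
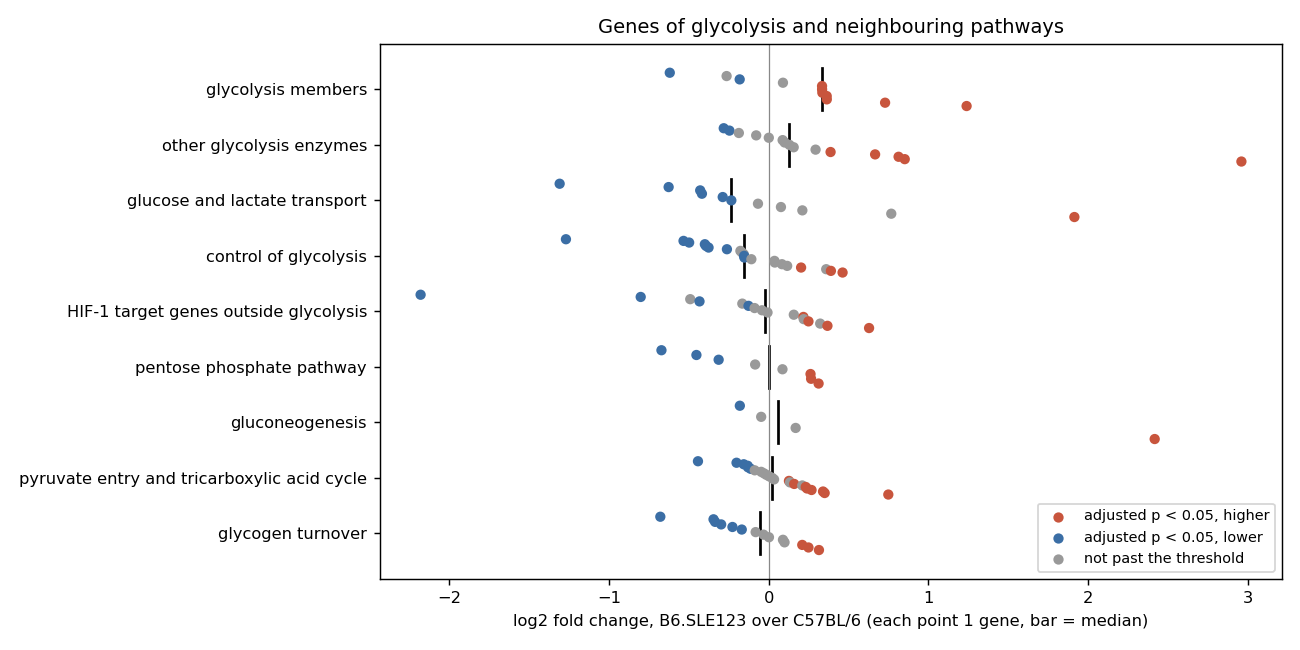
Log2 fold change of B6.SLE123 over C57BL/6 (horizontal axis) for each gene (point) of glycolysis and of 8 lists of related genes (vertical axis), with a black bar at the median of each list and colour for the edgeR adjusted p at 0.05. The members have a median of 0.33, while the medians of transport and control of glycolysis are -0.23 and -0.15, and the points beyond 1.5 either way, such as Fbp1, Slc2a5 and P4ha2, have few counts.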

How the data were processed

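CD11c-positive splenocytes of 4 C57BL/6 and 4 B6.SLE123 female mice were sequenced from stranded mRNA libraries. The authors checked reads with FastQC, removed adapters and poor bases with cutadapt, mapped to mm10 using STAR, summarised reads per gene using featureCounts, and deposited raw counts for 13786 protein-coding genes. Versions, the strand setting and the treatment of multi-mapping reads are not given in the sources used here. In every gene of the table the larger strain median was at least 5 counts. The same table holds the authors' DESeq2 results, namely mean normalised signal, log2 fold change, ratio, score and p-values, which were not used.

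Counts were scaled by TMM and compared with the quasi-likelihood test of edgeR 4.0.16 in R 4.3.3. No low-count filter was used, and p-values were adjusted after Benjamini and Hochberg across the 13786 genes. CPM values are TMM-scaled, and log2 CPM uses a prior count of 2. Levels between genes were divided by exon length (GENCODE M21). Ratios used counts plus 0.5 and exact two-sided permutation tests, adjusted over 8 isoenzyme ratios and 9 ratios to Gapdh. On simulated counts with 200 of 13786 genes changed, 97% of 2-fold and 81% of 1.5-fold changes were recovered, and 7 of 185 calls were false. That setting held far fewer changes than the data, where 53.4% of genes were called. Nor did it cover folds below 1.5, such as the 1.26-fold of Gapdh. No pair of mice within a strain differed by sampling noise alone (chi-square per degree of freedom 5.16 to 19.8), and p-values measure the spread between these mice.

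The members and gene lists were chosen with earlier results of these data known. Named were all members, the other glycolysis enzymes (some genes are not reported here), the 3 largest changes without overlap and with an adjusted p below 0.05 of each related list, and, of the 2 most abundant genes of each marker list, those of lists that differed most. Promoter windows are RefSeq's for GRCm38.p6, and all 10 members matched. The alternatives were relative log expression factors, library totals, at least 10 counts in every mouse, DESeq2 1.42.0, limma-voom (limma 3.58.1), a replicate block, nothing added in ratios, and each mouse left out. The single-cell, treatment and human experiments of the study were not analysed here.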

Additional observations from a re-analysis of the deposited data

Results flagged for a closer look

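Dixon's criterion compares the gap between an extreme sample and its nearest neighbour with the range of the group. At its 95% critical value for 4 mice it was applied to 90 groups and met by 2. Chance flags about 1 in 20 groups, which is 4.5 of 90. Pgk1 in C57BL/6 replicate 2 was at 6.60 log2 CPM, below a median of 6.72 in that strain. Idh3a, a subunit of the isocitrate dehydrogenase of the tricarboxylic acid cycle, was at 5.81 log2 CPM in B6.SLE123 replicate 1, above a median of 5.65.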

How the results depend on the processing

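Across 14 alternatives, the fold changes of the members kept direction and call in 146 of 153 values, with 6 that lost the call, 1 that gained it and 0 that turned. These are the changes of Aldoa, Pgk1 and Hk3 with single mice given above. The count of called members was 9 under every scaling and tool and 8 among 10 tested with at least 10 counts in every mouse, and 8 to 9 with a mouse left out. The count more than 2-fold changed went from 1 to 0 with at least 10 counts in every mouse, which removes the second Aldoa identifier from the test, and was 0 to 1 with a mouse left out, being 0 without C57BL/6 replicate 2. The called genes of related lists numbered 64 of 111, and 56 to 65 under the alternatives. Ratios without overlap numbered 4 to 6 for isoenzymes and 5 to 6 over Gapdh.

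Genes near 0 changed sign. The log2 fold change of Gpi1 was -3.9e-05 with relative log expression factors, -0.0058 with library totals, -0.012 with at least 10 counts and -0.00012 with DESeq2, and -0.017 to 0.014 with a mouse left out. Pfkm was -0.16 to 0.0093 and Eno1b -0.45 to 0.35 with a mouse left out, and Eno1b -0.023 with limma-voom. Calls of Eno2, Eno3, Aldoc, Bpgm, Slc2a5 and Pck2 also changed with single mice, and the cause was not tested.

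Same-numbered mice correlated at 0.046, 0.173, 0.050 and 0.125 in their deviations from the strain means, so the numbers were not taken as pairs. A replicate block left 9 members called, 1 of them more than 2-fold, 65 genes of related lists, 5 isoenzyme ratios and 5 ratios to Gapdh, and brought Aldoc (0.29, edgeR adjusted p = 0.0379) past the threshold. Genes under the minimum count of 5 in the table were not tested, and at 2 counts, as for the second Aldoa identifier in 1 mouse, depth limits any fold.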

Other observations

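Downstream of pyruvate, the 23 genes of pyruvate entry and the tricarboxylic acid cycle included 8 that were higher and 6 that were lower by edgeR, with a median log2 fold change of 0.02, shares near those over all genes (26.7% and 26.6%). Fh1, fumarate hydratase, rose from 70.7, 71.1, 73.5 and 83.0 CPM to 133, 131, 117 and 120 CPM, a log2 fold change of 0.75 ± 0.063 (SE, edgeR adjusted p = 3.7e-06). Sdhc, the succinate dehydrogenase subunit just before it in the cycle, fell by 0.44 ± 0.053 (SE, edgeR adjusted p = 4.3e-05), and Idh3a rose by 0.35 ± 0.048 (SE, edgeR adjusted p = 0.000113). Where Fh1, Sdhc and Idh3a lie relative to the intervals Sle1, Sle2 and Sle3 was not examined here.

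Glycogen turnover genes were lower in 6 and higher in 3 of 14, against 26.6% and 26.7% of all genes, with a median of -0.06. Pygm, Pygl and Gbe1, which encode muscle and liver glycogen phosphorylase and the branching enzyme, fell by 0.68 ± 0.189, 0.34 ± 0.058 and 0.35 ± 0.085 on the log2 scale (SE, edgeR adjusted p = 0.011, 0.000579 and 0.00533). Pygm had at most 51 counts in a mouse. Gyg, Phkb and Gys1 were higher and were named after their values were seen. Of 4 gluconeogenesis genes, Pck2 fell by 0.18 ± 0.056 (SE, edgeR adjusted p = 0.0192), and Fbp1, named after its values were seen, had 0, 1, 0 and 2 counts in C57BL/6 mice and 8, 6, 2 and 4 counts in B6.SLE123 mice.

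Among markers of dendritic cell types, 6 of 8 type 1 conventional markers were higher and 1, Batf3, was lower, with Irf8 at 0.48 and Clec9a at 0.82 on the log2 scale. Of 7 type 2 conventional markers, Sirpa (-0.91) and Cd209a (-0.66) were lower and Dtx1 (0.31) was higher. Of 7 plasmacytoid markers, Siglech and Pacsin1 were higher and Ly6d and Spib lower. B cell markers were lower in 6 of 8. Of monocyte markers 2 of 9 were lower, of neutrophil markers 2 of 8 were higher and 2 lower, of plasma cell markers 2 of 5 were higher and 2 lower, and of T cell markers 1 of 7 was higher and 1 lower. No NK cell or platelet marker was called. Over all genes 26.7% were called higher and 26.6% lower, and small counts such as 2 of 9 or 2 of 8 are near those shares. Batf3, Cd209a, Siglech, Pacsin1 and Ly6d were named after their values were seen.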
